A study of Mus musculus with 26 samples.

Results

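The 9 genes described here encode the enzymes and carriers that bring long-chain fatty acids into mitochondria and oxidize them: Cpt1a, Cpt1b, Slc25a20, Cpt2, Acadvl, Acadl, Acadm, Hadha and Hadhb. They were chosen by name, as the rows of the deposited count tables that carry these symbols, and make up 9 of the 39017 genes listed. All 9 were found in both fractions and passed the filter on low counts in every comparison. RNA was sequenced from adipocytes and from stromal vascular cells (SVC) of the epididymal fat of male C57BL/6J mice, aged 9 to 10 weeks when the diets began. Lean mice (LFD) ate a diet with 10% fat for 12 weeks, obese mice (HFD) ate a diet with 60% fat for 12 weeks, and formerly obese mice (SW) ate the HFD for 9 weeks and then the LFD for 3 weeks. The mice carried no transgene or deletion named in the labels. The fat was digested with collagenase at 1 mg/ml. The floating cells were taken as adipocytes and the pellet, after lysis of red blood cells, as SVC, so each fraction holds whatever cells floated or sank with it.

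Fatty acids that enter a mitochondrion are first tied to coenzyme A and then handed to carnitine. Carnitine palmitoyltransferase 1 makes acylcarnitine at the outer membrane and is held back by malonyl-CoA, the carrier Slc25a20 moves acylcarnitine across the inner membrane, and Cpt2 returns the acyl group to coenzyme A inside. Acyl-CoA dehydrogenases of different chain-length preference (Acadvl, Acadl and Acadm) then take the first step of beta-oxidation, and the trifunctional protein, built from the alpha subunit Hadha and the beta subunit Hadhb, carries out the remaining steps on long chains. White adipocytes are known mainly for storing and releasing fatty acids, and also oxidize some of them.

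Hadha and Hadhb lie head to head on chromosome 5 and are transcribed in opposite directions, so their upstream sequence is shared. In the GENCODE M21 annotation of GRCm38, Hadha (ENSMUSG00000025745) starts at 30155162 on the minus strand and Hadhb (ENSMUSG00000059447) at 30155248 on the plus strand, with 85 bases between them. The RefSeq annotation of GRCm38.p6 puts 272 bases between the starts. The 85 bases are shown because the 2 genes that share them had different responses to diet. The upstream stretches of Cpt1a and Acadm are shown because these genes had the largest change that passed the test between diets, in adipocytes and in SVC in turn. The Cpt1a stretch lies upstream of the RefSeq start and between exons of longer GENCODE transcripts. All are from RefSeq's promoter table (GRCm38.p6), 5′ to 3′ on the strand named, without bases that GENCODE places in an exon, and capitals mark the letters GGGCGG (a GC box) and AGGTCA (a nuclear receptor core site) or their reverse complements CCGCCC and TGACCT.
Hadha-Hadhb, chr5:30155163-30155247, plus strand: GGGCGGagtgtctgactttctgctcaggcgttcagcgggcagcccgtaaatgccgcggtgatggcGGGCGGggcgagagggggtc
Cpt1a, chr19:3323051-3323284, plus strand: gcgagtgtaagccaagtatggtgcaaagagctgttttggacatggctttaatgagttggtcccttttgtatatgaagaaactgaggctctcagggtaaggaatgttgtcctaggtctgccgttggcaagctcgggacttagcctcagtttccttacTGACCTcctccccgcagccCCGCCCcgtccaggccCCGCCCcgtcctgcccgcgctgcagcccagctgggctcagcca
Acadm, chr3:153944644-153944893, minus strand: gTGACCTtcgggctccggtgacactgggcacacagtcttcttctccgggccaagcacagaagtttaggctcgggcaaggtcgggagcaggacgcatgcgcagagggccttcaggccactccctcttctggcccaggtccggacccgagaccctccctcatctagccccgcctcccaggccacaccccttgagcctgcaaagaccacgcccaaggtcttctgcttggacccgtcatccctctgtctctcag

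Promoters were found in that table for 8 of the 9 genes, the exception being Cpt1b. In the 250 bases before the RefSeq start, searched on both strands, GGGCGG was found in 6 of the 8 promoters, against 32.7% of all 32851 promoters in the table. The windows of Hadha and Hadhb overlap, and the only match in that of Hadha is also a match in that of Hadhb, so it counts for both. AGGTCA was found in 3 of the 8 (Cpt1a, Acadm and Acadvl), against 14.0% of all. CCAAT was found in 1 (Cpt1a), against 33.8% of all. None of the 8 held TATAAA (12.4% of all), TCAAGGTCA (0.387% of all), which itself ends in AGGTCA, the direct repeat of AGGTCA with 1 base between the copies (0.0335% of all) or the palindromic NRF-1 motif (0.782% of all).

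The 9 adipocyte libraries, 3 per diet, hold 6142895 to 23725647 estimated counts, and the 6 SVC libraries (1 LFD, 2 HFD and 3 SW) hold 5781902 to 22195810. Levels are given in CPM, each count relative to its library's total after TMM scaling over all 15 libraries. Libraries of a group are lettered A to C in column order, and the letters tie no library to a mouse. The members had 25 to 9249 counts per adipocyte library and 7 to 3696 per SVC library, so that Cpt1b, the lowest in each, has the widest counting error. Summed over 8 adipocyte genes such as Adipoq and Fabp4, the adipocyte libraries held 15505 to 41956 CPM and the SVC libraries 1247 to 5220 CPM. Summed over 11 macrophage genes such as Cd68 and Lyz2, the SVC libraries held 10839 to 25307 CPM. In adipocytes this sum was 718 to 1197 CPM in LFD, 8628 to 9877 CPM in HFD and 6560 to 10022 CPM in SW mice, and all 11 genes were called higher in HFD than in LFD mice. In these bulk samples, fewer cells of a type and less RNA per cell cannot be told apart.

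Compared per length of transcript, the 9 genes differed widely in adipocytes. In LFD mice the means ran from 158 CPM per kb for Hadhb, 150.4 for Acadm and 133 for Acadl, through 87.5 for Acadvl, 46.5 for Cpt2, 33.8 for Slc25a20 and 32.1 for Hadha, to 13.6 for Cpt1a and 1.56 for Cpt1b. The libraries of Hadhb overlapped with those of Acadm, those of Acadm with those of Acadl, and those of Slc25a20 with those of Hadha, while the other neighbours in this order were apart. In HFD mice Cpt1a moved from the eighth to the sixth place, at 36.4 CPM per kb beside 36.2 for Slc25a20 and 33.1 for Cpt2, whose libraries overlapped with it. Hadha moved from the seventh to the fifth place, at 63.5 CPM per kb beside 63.6 for Acadvl. With the coding length in place of the transcript length, Acadm rather than Hadhb was the highest of the 9 in each diet group. In HFD mice Cpt1a was then at 67.7 CPM per kb, below Slc25a20 (71.4) and Acadvl (70.1), and Hadha was at 111. Cpt2 was at 39.8, and its libraries (32.5 to 49.3) no longer overlapped with those of Cpt1a (62.6 to 71.1).

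In adipocytes, 4 of the 9 genes changed between HFD and LFD mice at an adjusted p under 0.05 (quasi-likelihood test of edgeR, adjusted by Benjamini-Hochberg over 14461 genes), where 51.5% of all genes tested did. Cpt1a and Hadha were higher in HFD mice, beside 26.5% of all genes, and Cpt2 and Acadvl were lower, beside 25.0%. The median log2 fold change of the 9 was -0.08, and that of all genes was -0.03. For these 4 genes no library of one diet lay within the range of the other. This was also so for 62.3% of all genes, 33.0% with HFD above LFD and 29.2% with HFD below it.

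**Figure D1:**
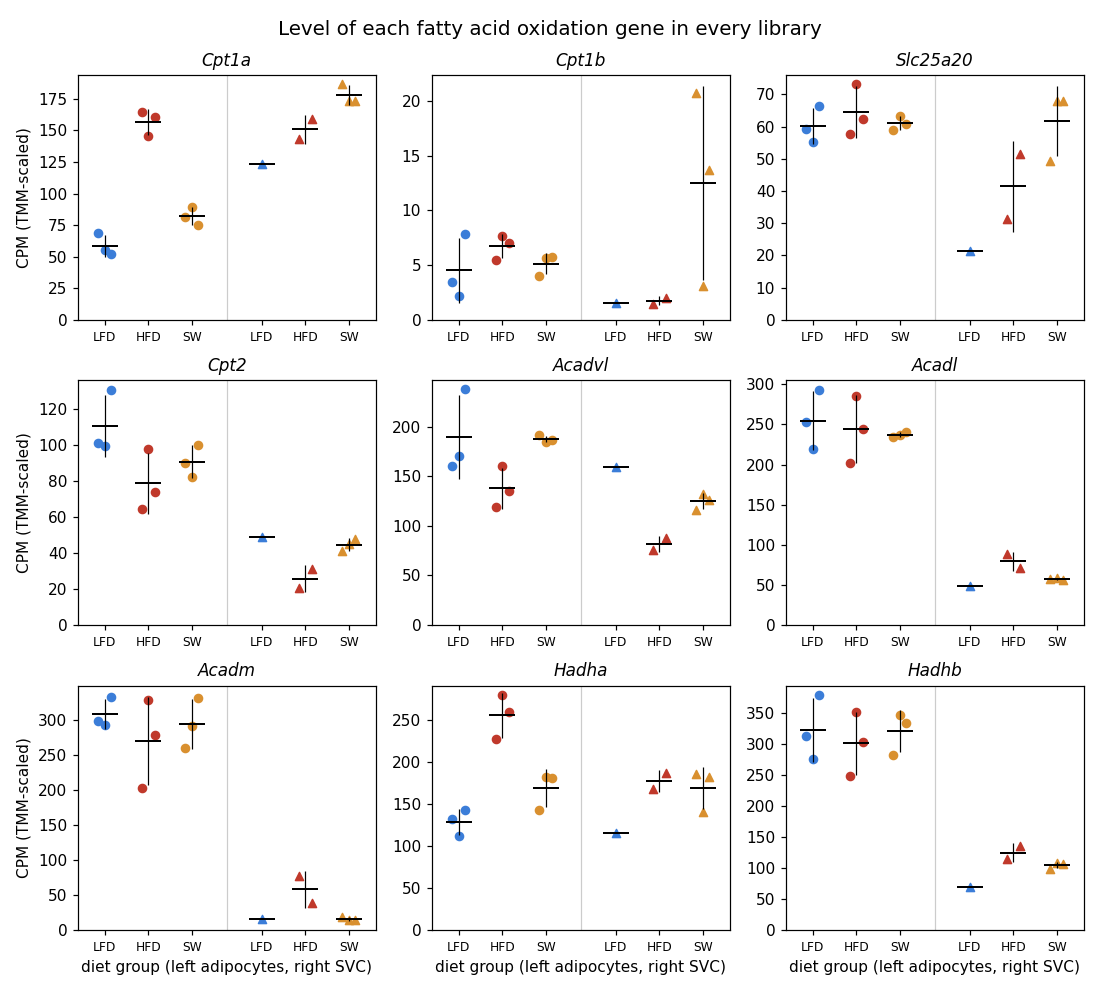
Level of each gene in CPM (vertical axis, TMM-scaled, from 0) in every library by diet group, adipocytes as circles on the left and SVC as triangles on the right of each panel. Horizontal bars are means and vertical bars SD, and among adipocytes Cpt1a and Hadha are seen to be highest in HFD mice, while Acadm is at 202 to 332 CPM in adipocytes and at most 77.0 CPM in SVC.

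Of the carnitine shuttle, Cpt1a (ENSMUSG00000024900), the liver-type form of carnitine palmitoyltransferase 1, had the largest change. Its levels were 68.7, 55.3 and 52.0 CPM in LFD A to C and 165, 145 and 161 CPM in HFD A to C. Every HFD library was thus above every LFD library, by a margin wider than the spread within either diet. The mean rose from 58.7 ± 8.84 to 157 ± 10.3 CPM (SD, n = 3), a fold of 2.64, with a log2 fold change of 1.40 (standard error, SE, 0.14, adjusted p = 4.17e-05 by edgeR). It was called in each of the 9 fits that left out 1 library, with log2 fold changes from 1.32 to 1.54.

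Cpt1b, the muscle-type form, was at 3.49, 2.21 and 7.84 CPM in LFD A to C and at 5.50, 7.63 and 7.04 CPM in HFD A to C. The groups overlapped because LFD C was the highest of the 6, and the log2 fold change of 0.62 (SE 0.38) was not called (adjusted p = 0.200 by edgeR). Without LFD C it was 1.28 (adjusted p = 0.0075 by edgeR), and limma-voom with all libraries gave 0.98 (adjusted p = 0.0364). LFD C also held the most Ucp1, the brown fat uncoupling protein, at 46.6 CPM against 5.86 and 0.368 CPM in LFD A and B and 12.9 to 18.9 CPM in the HFD libraries. Summed over 8 skeletal muscle genes, LFD C was the highest as well, at 85.6 CPM against 71.5 and 69.5 CPM in LFD A and B. The HFD libraries held 16.6 to 31.0 CPM of these. The part of brown fat or muscle RNA in the Cpt1b levels was not tested. Reads of Cpt1b can also come from transcripts that run through from its neighbour Chkb, which these counts do not separate. Of carnitine palmitoyltransferase 1 per length of transcript, Cpt1a made up 93.0%, 94.4% and 81.7% in LFD A to C and 95.3%, 92.7% and 93.9% in HFD A to C. These shares overlapped (exact permutation test on the log2 shares, two-sided p = 0.5, n = 3 per group, where the smallest possible is 0.1).

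Slc25a20, the carnitine-acylcarnitine translocase, held between 55.1 and 73.3 CPM in the 6 LFD and HFD adipocyte libraries, which overlapped. Its log2 fold change was 0.08 (SE 0.12, adjusted p = 0.566 by edgeR). With the correction for transcript length it was 0.30 and was called (adjusted p = 0.0444 by edgeR). Cpt2 went the other way from Cpt1a. It was at 101, 99.4 and 130.1 CPM in LFD A to C and at 64.2, 97.4 and 74.1 CPM in HFD A to C, with HFD B only just below the lowest LFD library. The log2 fold change of Cpt2 was -0.50 (SE 0.17, adjusted p = 0.0288 by edgeR) on the TMM scale and 0.74 when the libraries were scaled to the 8 adipocyte genes, a scaling that moved the median of all genes to 1.25. Leaving out HFD A, HFD C or LFD C, 1 at a time, ended this call, with adjusted p-values from 0.0964 to 0.115 by edgeR, as did limma-voom with the local false discovery rate that the study used (0.0732).

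The 2 carnitine palmitoyltransferases that act in series thus differed in their ratio. The counts of Cpt1a over those of Cpt2 in the same library were 0.680, 0.557 and 0.400 in LFD A to C, 2.57, 1.49 and 2.17 in HFD A to C, and 0.900, 1.09 and 0.753 in SW A to C. The 3 diet groups were apart, with LFD lowest and HFD highest. Each pair of groups gave the smallest p that an exact two-sided permutation test of 3 against 3 allows, 0.1. A ratio within a library does not depend on the scaling, but it can depend on transcript length, and this one was chosen after the data were seen. With the correction for transcript length, the log2 fold change of HFD against LFD was 1.25 for Cpt1a and -0.49 for Cpt2.

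Of the acyl-CoA dehydrogenases, Acadvl, which prefers very long chains, was lower in HFD than in LFD mice. It was at 161, 170.4 and 238 CPM in LFD A to C and at 119, 159.9 and 135 CPM in HFD A to C, again with HFD B just below the lowest LFD library. The log2 fold change of Acadvl was -0.48 (SE 0.17, adjusted p = 0.0346 by edgeR) on the TMM scale and 0.80 on the scale of the 8 adipocyte genes. The call ended without HFD A, without HFD C, without LFD C and without SW C (adjusted p from 0.0507 to 0.145 by edgeR), without a filter on low counts (adjusted p = 0.0731), with a correction for transcript length (adjusted p = 0.0524) and with the local false discovery rate (0.108). Acadl, the long-chain form, was at 219 to 293 CPM in LFD and 202 to 286 CPM in HFD mice, with a log2 fold change of -0.08 (SE 0.16). Acadm, the medium-chain form, was at 293 to 332 CPM in LFD and 202 to 327 CPM in HFD mice, with a log2 fold change of -0.21 (SE 0.18). The groups overlapped for both, and neither was called (adjusted p = 0.696 for Acadl and 0.345 for Acadm by edgeR). On the scale of the 8 adipocyte genes these values were 1.17 for Acadl and 1.01 for Acadm, both below the median of all genes on that scale.

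The 2 subunits of the trifunctional protein differed. Hadha was at 133, 112 and 142 CPM in LFD A to C and at 227, 279.8 and 259 CPM in HFD A to C, with no overlap. The mean rose from 129 ± 15.4 to 255 ± 26.8 CPM (SD, n = 3), a fold of 1.95, with a log2 fold change of 0.97 (SE 0.15, adjusted p = 0.00056 by edgeR). It was called in each of the 9 fits that left out 1 library. Hadhb was at 314, 276 and 379 CPM in LFD A to C and at 249, 351 and 303 CPM in HFD A to C, so the groups overlapped. Its log2 fold change was -0.12 (SE 0.17, adjusted p = 0.590 by edgeR) on the TMM scale and 1.14 on the scale of the 8 adipocyte genes, against 1.25 for the median of all genes.

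Within a library, the counts of Hadha over those of Hadhb were 0.423, 0.406 and 0.376 in LFD A to C, 0.910, 0.797 and 0.853 in HFD A to C, and 0.504, 0.527 and 0.543 in SW A to C. The libraries of each diet lay close together and the 3 diets were apart, SW between LFD and HFD and nearer to LFD. The mean ratio of LFD mice was 0.401 ± 0.0239, that of HFD mice 0.853 ± 0.0563 and that of SW mice 0.524 ± 0.0196 (SD, n = 3 each). Each pair of diets gave p = 0.1 in the exact two-sided permutation test, the smallest it allows. This ratio was also chosen after the data were seen. With the correction for transcript length, the log2 fold change of HFD against LFD was 0.85 for Hadha and -0.03 for Hadhb. A Hadhb pseudogene, Gm13910, had at most 11 counts in any library, against at least 323 for Hadhb.

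**Figure D2:**
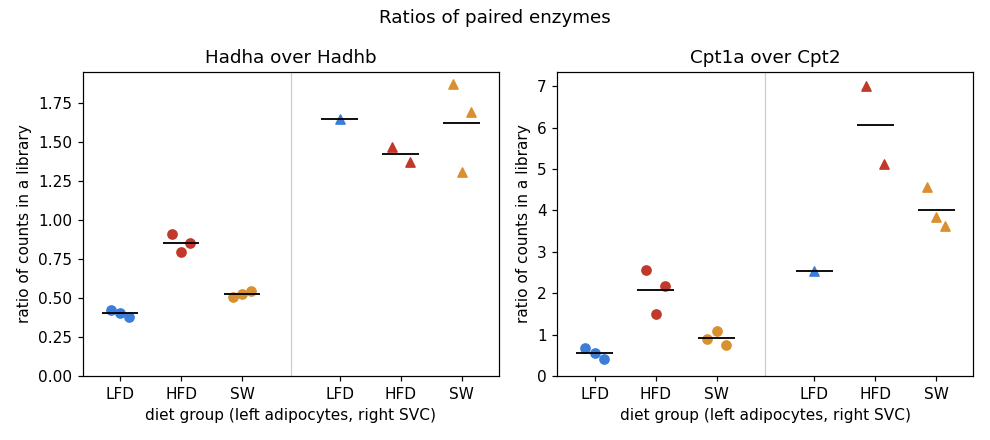
Ratio of the counts of Hadha over Hadhb (left) and of Cpt1a over Cpt2 (right) in each library (vertical axes, from 0), by diet group, with adipocytes as circles, SVC as triangles and horizontal bars as means. In adipocytes both ratios are lowest in LFD, highest in HFD and in between in SW mice, with no overlap between diets. The SVC libraries lie higher than the adipocyte libraries of the same diet in these uncorrected counts. With a correction for GC content, log2 fold changes of adipocytes against SVC in SW mice went from -0.01 to 0.36 for Hadha and from 1.62 to 0.53 for Hadhb. In HFD mice they went from 0.53 to 0.64 and from 1.27 to 0.87.

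After the switch from HFD to LFD, 2 of the 9 genes changed in adipocytes between HFD and SW mice, where 31.4% of all genes tested were called by edgeR. Both fell, beside 15.9% of all genes that fell and 15.6% that rose. Cpt1a was at 81.0, 89.4 and 75.3 CPM in SW A to C, all below the lowest HFD library. Its log2 fold change was -0.93 (SE 0.14, adjusted p = 0.00413 by edgeR). Hadha was at 143, 182 and 181 CPM in SW A to C, also below every HFD library. Its log2 fold change was -0.58 (SE 0.15, adjusted p = 0.0177 by edgeR), and without HFD C the call ended (adjusted p = 0.0604 by edgeR).

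Acadvl was at 191, 184 and 187 CPM in SW A to C, all above the highest HFD library, with a log2 fold change of 0.46 (SE 0.17) that missed the threshold in edgeR (adjusted p = 0.0585) and passed it in DESeq2 (adjusted p = 0.0313). For 3 of the 9 genes the SW and HFD libraries did not overlap, beside 48.3% of all genes (22.3% with SW above HFD and 26.1% with SW below it). The other 6 had log2 fold changes between -0.37 for Cpt1b and 0.22 for Cpt2, with overlapping libraries. Scaled to the 8 adipocyte genes, the median of all genes moved to -0.88 in this comparison and Acadvl was not called.

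Against LFD mice, 1 of the 9 genes was called in SW adipocytes, where 17.1% of all genes were, 10.9% higher and 6.18% lower. This was Cpt1a, with a log2 fold change of 0.48 (SE 0.14, adjusted p = 0.0402 by edgeR) and each SW library above each LFD library. The call ended with upper-quartile factors (adjusted p = 0.0630), on the scale of the 8 adipocyte genes (0.0992), with the local false discovery rate (0.0914), without a filter on low counts (0.0502) and in a fit of these 2 groups alone (0.0504). It also ended without any 1 of HFD C, LFD B, LFD C, SW A and SW B (adjusted p from 0.0652 to 0.142). The log2 fold change stayed positive in all of these fits, from 0.39 to 0.86. Hadha was also higher in each SW library than in each LFD library, with a log2 fold change of 0.38 (SE 0.15) that was not called by edgeR (adjusted p = 0.107) and was called by DESeq2 (adjusted p = 0.0492). Libraries without overlap were found for these 2 genes, beside 36.5% of all genes (19.4% with SW above LFD). The log2 fold changes of the other 7 genes lay between -0.29 for Cpt2 and 0.25 for Cpt1b, and SW and LFD libraries overlapped for each of them. The comparison with LFD shares its SW libraries with the comparison with HFD.

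With HFD and SW mice as 1 set against LFD mice, the same fit called Cpt1a (log2 fold change 0.94, SE 0.12, adjusted p = 0.00031 by edgeR) and Hadha (0.68, SE 0.13, adjusted p = 0.00292), 2 of 9 beside 40.1% of all genes (20.7% higher and 19.4% lower than in LFD mice). Cpt2 was at the threshold, with a log2 fold change of -0.40 (SE 0.14, adjusted p = 0.0501 by edgeR). DESeq2, limma-voom and upper-quartile factors called it, with adjusted p-values of 0.0352, 0.0401 and 0.0237, and scaled to the 8 adipocyte genes, where the median of all genes was 0.82, it was not called. This contrast is built from the same 9 libraries as the 3 before it.

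**Figure D3:**
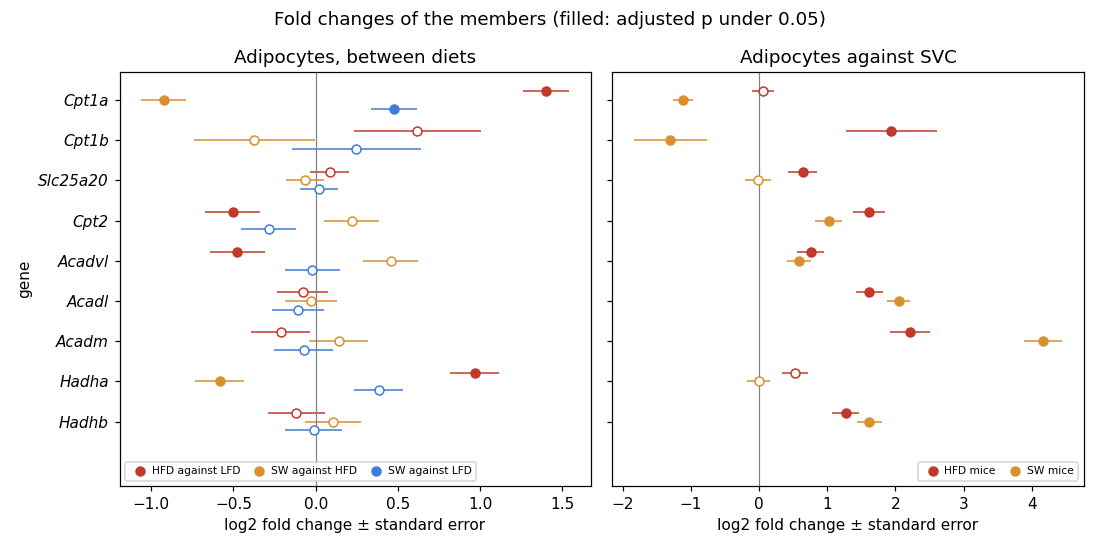
Log2 fold change (horizontal axis) with its standard error for each gene, left between diets in adipocytes and right between adipocytes and SVC of the same diet, filled where edgeR's adjusted p is under 0.05 on the TMM scale. Cpt1a and Hadha are to the right in HFD against LFD and to the left in SW against HFD, Cpt2 and Acadvl are called lower in HFD against LFD on this scale and higher when scaled to adipocyte genes, and Acadm has the largest difference between fractions.

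In SVC, the 2 HFD libraries were unlike each other: mitochondrial transcripts took 6.34% of the counts of HFD A and 33.5% of those of HFD B. The libraries also differed in how counts followed the GC content of transcripts. The median level of the genes under 45.6% GC less that of the genes over 54.9% GC, on the log2 scale and relative to the mean over libraries, was 0.50 in HFD A, -0.32 in HFD B, -1.91 in LFD A and -2.16 to -1.65 in the SW libraries. These values move with diet, and their part in the SVC results is seen only in the fit with a correction for GC content, chosen after the data were seen. In that fit edgeR called none of 16319 genes between SW and HFD mice, with 4398 at an unadjusted p under 0.05; without it, 2849 (17.5%) were called, 5.71% higher and 11.7% lower, and DESeq2 called 5222.

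Between SW and HFD mice, 1 of the 9 genes was called in SVC, Acadm. It was at 77.0 and 39.3 CPM in HFD A and B, at 19.3, 14.2 and 15.1 CPM in SW A to C, and at 15.8 CPM in the LFD library. The SW and LFD libraries thus held less than either HFD library, and HFD A held more than HFD B. The log2 fold change between SW and HFD was -1.96 (SE 0.36, adjusted p = 0.0368 by edgeR). With the correction for GC content it was -1.57 (adjusted p = 0.143), without HFD A -1.22 (adjusted p = 0.0620), and the call also ended without any 1 SW library (adjusted p from 0.0556 to 0.155). The 8 adipocyte genes summed to 5220 and 2926 CPM in SVC HFD A and B and to 1560 to 1697 CPM in the SW libraries, but the genes did not move alike. Fabp4 and Lpl, the 2 called, were lower in SW (-2.08 and -1.94), and the other 6 had positive log2 fold changes that were not called, from 0.19 for Aqp7 to 1.26 for Adipoq, with a median over the 8 of 0.63. Adipoq, a defining adipocyte gene, was at 13.6 and 36.7 CPM in HFD and 36.8 to 80.5 CPM in SW libraries. The part of adipocyte RNA in the Acadm levels was not tested.

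Cpt1b had the largest difference in SVC without being called. It was at 1.48 and 2.04 CPM in HFD A and B, 1.52 CPM in the LFD library and 20.7, 3.14 and 13.7 CPM in SW A to C, so that SW A and C stood apart from the rest. The log2 fold change of 2.74 (SE 0.82) had an adjusted p of 0.0606 by edgeR and of 0.00462 by DESeq2. The protamine genes, which package DNA in sperm, were also high in SW A and C: Prm1 was at 239, 6.93 and 182 CPM in SW A to C and at 1.05 and 8.16 CPM in HFD A and B. Summed over 9 genes of testis and epididymis, the SVC libraries held 836, 38.4 and 727 CPM in SW A to C, 13.6 and 210 CPM in HFD A and B and 83.9 CPM in LFD A, and the part of such RNA in the Cpt1b levels was not tested. None of the 9 was called between SW and HFD mice (adjusted p = 0.0735 for Prm1 and 0.0551 for Prm2 by edgeR). The log2 fold change was positive for 6 of them and negative for Crisp1 (-3.68), Lcn5 (-1.51) and Lcn8 (-0.38), genes of the epididymis. Adipocyte libraries held 0.228 to 18.1 CPM of the same 9 genes. Without SW A the log2 fold change of Cpt1b was 2.10 (adjusted p = 0.137 by edgeR), and without SW B it was 3.20 (adjusted p = 0.0429).

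**Figure D4:**
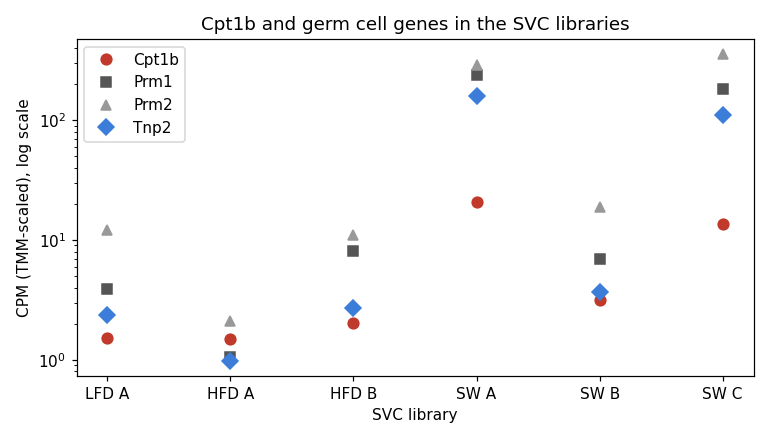
Level in CPM (vertical axis, log scale) of Cpt1b and of the sperm genes Prm1, Prm2 and Tnp2 in each of the 6 SVC libraries (horizontal axis). All 4 genes are highest in SW A and SW C, where Cpt1b is at 20.7 and 13.7 CPM against at most 3.14 CPM in the other libraries. For 3 epididymal genes, not drawn, the log2 fold change of SW against HFD was negative but not called, and the libraries overlapped.

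The other 7 genes were not called in SVC. Cpt1a was at 143 and 159 CPM in HFD and 173 to 187 CPM in SW libraries, with a log2 fold change of 0.15 (SE 0.19, adjusted p = 0.566 by edgeR). Hadha was at 168 and 186 CPM in HFD and 141 to 186 CPM in SW libraries, with a log2 fold change of -0.16 (SE 0.21). Cpt2 (0.72), Acadvl (0.52), Slc25a20 (0.50), Hadhb (-0.34) and Acadl (-0.58) had log2 fold changes with adjusted p-values from 0.0760 to 0.217 by edgeR, and Cpt2 and Acadvl were called by DESeq2 (adjusted p = 0.0425 and 0.0451). With the correction for GC content the values of Cpt2 and Acadvl went to 0.29 and 0.01 (adjusted p = 0.363 and 0.967 by edgeR), and those of Acadl and Hadhb turned direction, to 0.35 and 0.54. SW and HFD libraries did not overlap for 7 of the 9 genes, 4 higher and 3 lower in SW, beside 59.6% of all genes (31.3% higher and 28.3% lower). The single LFD library allows no test. It held 124 CPM of Cpt1a, 115 of Hadha, 159 of Acadvl, 70.0 of Hadhb, 48.8 each of Cpt2 and Acadl, and 21.2 of Slc25a20.

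Between the fractions, 7 of the 9 genes differed in SW mice and 7 in HFD mice, in a fit of all 15 libraries over 17441 genes, where 68.4% and 29.1% of all genes were called by edgeR. In HFD mice all 7 were higher in adipocytes, beside 12.9% of all genes, and none was lower, beside 16.2%. In SW mice 5 were higher (32.8% of all genes) and 2 lower (35.6%). Acadm had the largest difference, with a log2 fold change of adipocytes against SVC of 4.17 (SE 0.28) in SW mice and of 2.21 (SE 0.29) in HFD mice. Its adipocyte libraries held 202 to 331 CPM in these 2 diets, all above its highest SVC library, and in LFD mice 293 to 332 CPM against 15.8 CPM. The corresponding log2 fold changes in SW and HFD mice were 2.05 and 1.62 for Acadl, 1.62 and 1.27 for Hadhb, 1.02 and 1.62 for Cpt2, and 0.59 and 0.76 for Acadvl, all called. The last lost its call in HFD mice when the fit held only the groups compared (adjusted p = 0.0724 by edgeR).

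The carnitine palmitoyltransferase 1 genes differed from this pattern. Cpt1a was lower in adipocytes than in SVC of SW mice, with a log2 fold change of -1.12 (SE 0.15, adjusted p = 1.71e-05 by edgeR), and in HFD mice the value was 0.06 (SE 0.16, adjusted p = 0.812). In LFD mice the 3 adipocyte libraries held 52.0 to 68.7 CPM of Cpt1a and the SVC library 124 CPM. Cpt1b was called in opposite directions, at -1.30 in SW mice (adjusted p = 0.0453 by edgeR) and 1.94 in HFD mice (adjusted p = 0.0425). These calls held in only 4 and 6 of the 15 fits that left out 1 library, and the SW value was -0.61 (adjusted p = 0.340) without SVC SW A, a library that holds the sperm genes. Hadha had log2 fold changes of -0.01 in SW and 0.53 in HFD mice (adjusted p = 0.980 and 0.0526 by edgeR), and the latter was called by DESeq2 (adjusted p = 0.0166). Slc25a20 was called in HFD mice (0.64, adjusted p = 0.0410 by edgeR) but in only 6 of the 15 fits that left out 1 library (0.32, adjusted p = 0.238, without SVC HFD A). The call also ended with the correction for GC content (adjusted p = 0.0808). In SW mice its log2 fold change was -0.01 (adjusted p = 0.965).

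The size of these differences changed when the correction for GC content was applied. That correction would also remove real differences between fractions that follow GC content. In adipocyte libraries the low-GC genes were above the high-GC genes by 0.59 to 1.13 on the log2 scale, the reverse of the LFD and SW libraries of SVC, and Acadl and Hadhb, with 45.1% and 45.4% GC, are the lowest of the 9 in GC content. This value also moved with diet in adipocytes, at 1.03 to 1.13 in HFD, 0.64 to 0.81 in LFD and 0.59 to 0.90 in SW libraries. Between HFD and LFD adipocytes, Cpt1a, Hadha, Cpt2 and Acadvl kept their calls with the correction (adjusted p from 4.13e-05 to 0.0439 by edgeR). With the correction, the difference between fractions in SW mice went from 2.05 to 0.97 for Acadl and from 1.62 to 0.53 for Hadhb, from 0.59 to 1.33 for Acadvl and from 4.17 to 3.76 for Acadm, and all 4 were called. Cpt1b went to -0.56 and was not called (adjusted p = 0.381 by edgeR).

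A term for the interaction of fraction and diet tested whether adipocytes and SVC responded unequally to the switch. It was called for 3 of the 9 genes, beside 27.1% of all genes (15.7% higher and 11.4% lower in adipocytes). The log2 difference of adipocytes less SVC was -1.18 for Cpt1a (SE 0.22, adjusted p = 0.00285 by edgeR), 1.96 for Acadm (SE 0.36, adjusted p = 0.00293) and -3.24 for Cpt1b (SE 0.85, adjusted p = 0.0143). With the correction for GC content these values were -0.92, 1.78 and -2.71, still called. For Hadha the value was -0.53 (SE 0.25), not called by edgeR (adjusted p = 0.137) and called by DESeq2 (adjusted p = 0.0468). Without SVC HFD B the interaction was called for 6 of the 9 genes, beside 38.5% of all genes in that fit.

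The rest of the pathway, from lists of named genes, is given by counts and medians, with 51.5% of all genes called in adipocytes between HFD and LFD mice and a median of all genes of -0.03. Of 18 other genes listed under mitochondrial beta-oxidation, 9 were lower in HFD mice, none was higher and 9 were not called, with a median log2 fold change of -0.65. The largest falls were those of Eci3, an enoyl-CoA isomerase of peroxisomes, at -3.24 (SE 0.38), and Acadsb, a dehydrogenase of short branched chains, at -1.07 (SE 0.16). The list is thus broader than mitochondrial beta-oxidation of fatty acids. Hadh, the dehydrogenase of shorter chains, went from 373 to 190.5 CPM and was at 287 CPM in SW mice. Between SW and HFD mice, 4 of the 18 rose and none fell, with a median of 0.39, beside 31.4% of all genes called and 15.6% that rose. Against LFD mice 2 were lower in SW mice, Eci3 and Acadsb, and none was higher, beside 17.1% of all genes called and 6.18% lower. The 9 members thus had a median of -0.08 in HFD against LFD mice where these 18 genes had -0.65, and whether the lists differ was not tested. Scaled to the 8 adipocyte genes, the median of all genes was 1.25 and these falls are relative to it.

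Of 10 genes tested for fatty acid activation and carnitine supply, 3 were higher in HFD adipocytes and none was lower, with a median of 0.18. The largest rises were those of Aldh9a1, an aldehyde dehydrogenase of carnitine synthesis, at 1.29 (SE 0.11), and Acsl4, an acyl-CoA synthetase, at 0.58 (SE 0.11). Each of the 3 genes that set malonyl-CoA was lower in HFD than in LFD mice: Acaca (-1.57), which makes malonyl-CoA, Acacb (-1.50), which makes it near Cpt1, and Mlycd (-1.04), which breaks it down. Acaca went from 285 CPM in LFD to 96.9 in HFD and 167 in SW mice, and Acacb from 79.3 to 28.2 and 41.6 CPM. In SW mice Acaca and Mlycd were called higher than in HFD mice, and Acacb was called lower than in LFD mice (log2 fold change -0.93, SE 0.24).

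Of 14 genes tested for peroxisomal beta-oxidation, which shortens very long chains, 4 were lower in HFD adipocytes, led by Pex11a, which went from 42.4 to 21.4 CPM, and Amacr (-0.81), with a median of -0.42. Acox3, an acyl-CoA oxidase, was higher (0.87). Of 15 regulators, none was higher and 6 were lower, with a median of -0.22. The largest falls were those of Klf15 (-2.06), a transcription factor of fed and fasted metabolism, and Pparg (-0.93), the main receptor of adipocyte identity. Ppara, the receptor best known for driving these enzymes in liver, was at 0.593 to 0.950 CPM in the means of the 3 diets and was not called. Of 12 targets of PPAR receptors outside the pathway, 5 were higher and 1 was lower (Cidea, -1.58), with a median of 0.41, the largest rises being those of Ucp2 (2.24) and Plin2 (1.86), a coat protein of lipid droplets. Of 15 other mitochondrial genes, 2 were higher (Vdac2, 0.46, and Tomm70a, 0.31) and 2 lower (Cox4i1, -0.85, and Mdh2, -0.48), with a median of -0.11. The adipocyte genes had a median of -1.07 and the macrophage genes one of 3.08 in the same comparison, and the part of a changed cell mixture in any of these values was not tested.

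**Figure D5:**
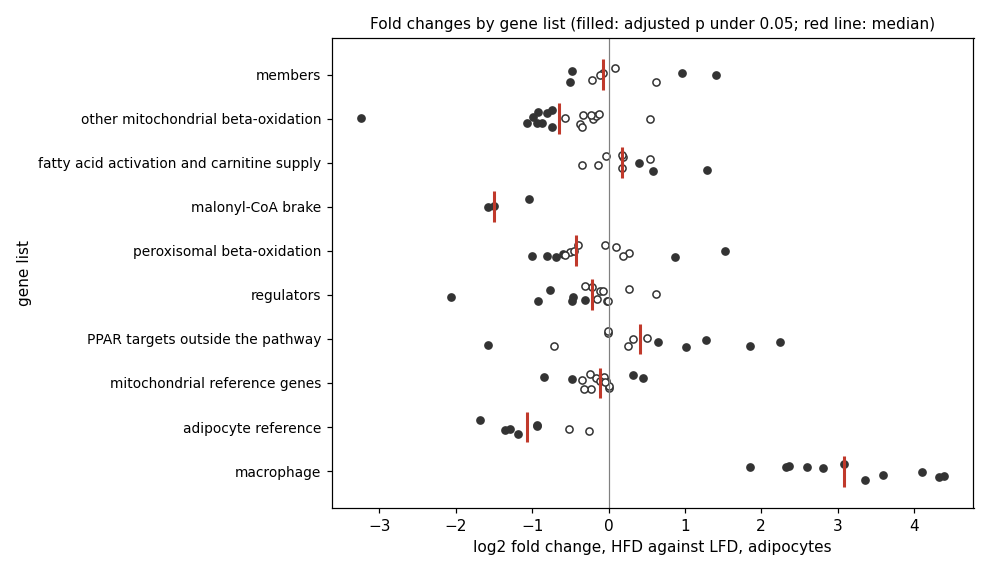
Log2 fold change between HFD and LFD adipocytes on the TMM scale (horizontal axis) of each gene in the lists named at the left, filled where edgeR's adjusted p is under 0.05, with list medians in red. The 9 members spread to both sides of 0 with a median of -0.08, the 18 other genes listed under mitochondrial beta-oxidation have a median of -0.65, the adipocyte genes -1.07 and the macrophage genes 3.08, while scaling to the adipocyte genes moves the median of all genes to 1.25.

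In SVC, between SW and HFD mice, the other genes listed under mitochondrial beta-oxidation had 1 rise (Acad10, 1.35) and 1 fall (Etfa, -1.66) among 17 tested, beside 17.5% of all genes. Genes of activation and carnitine supply had 1 rise (Cpt1c, 1.61) and 4 falls among 11 tested, led by Acsl3 (-2.51) and Tmlhe (-2.26). With the correction for GC content no gene was called in this comparison.

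Over the 9 adipocyte libraries, the genes whose log2 levels followed each member most closely are given as a description, since the libraries fall into 3 diet groups and share depth and composition. For Cpt1a these included Tmem65 and Snx6 (Pearson r of 0.99 each), for Hadha Cops2, Car13 and Pisd (0.98 each), for Cpt2 Timm23 (0.99), Ecsit (0.99) and Acp5 (0.97), and for Acadvl Chchd4 (0.99), Map1lc3b (0.98) and Atp5c1 (0.98). The closest to Hadhb was Hspa9 (0.97), to Acadl Idh3a (0.93), to Acadm Pex14 (0.98), to Slc25a20 Zfp207 (0.90) and to Cpt1b Pomt1 (0.95). Hadha and Hadhb were not among each other's 3 closest genes.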

How the data were processed

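RNA of adipocytes and SVC was sequenced and, per the labels and the paper, mapped with Bowtie2 (build mm9 in the submitters' processing notes) and counted with RSEM; tool versions are not given in the sources used here. The authors deposited expected counts (estimated counts) as whole numbers, without normalization. RSEM splits reads shared by similar transcripts. Columns were assigned to a group by fraction and diet in their names, and 3 columns whose names match no group were not used. The labels list 3 libraries per group in 26 records, and do not say that replicates are separate mice, so p-values measure the spread between these samples. For 8 of the 18 libraries in the labels there are 2 runs, paired-end and single-end, and whether these were added up is not given in the sources used here. Read layout was uneven over diets. Every SVC SW library had both runs, while some SVC HFD libraries had a single-end run only. In adipocytes no SW library had a single-end run, while some HFD and LFD libraries did. The parts of layout and diet cannot be fully told apart. SW mice were grouped by the treatment label, since their titles name only the low fat diet.

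Counts were filtered (filterByExpr, minimum count 10), scaled with TMM and fitted with edgeR 4.0.16 (robust quasi-likelihood, R 4.3.3), each fraction on its own for diets and all 15 libraries for fractions, with Benjamini-Hochberg adjustment over all genes and a threshold of 0.05. No library had a difference as small as counting noise from another of its group: the chi-square per degree of freedom was at least 13.7. GC content and lengths came from 1 transcript per gene in GENCODE M21 (98.8% of genes tested over both fractions had a value). The steps were tested on simulated data. All 9 members, and the 2 largest rises and falls of each companion list among genes past the threshold in HFD against LFD adipocytes, are named by rule; other genes named were chosen after their values were seen. The members and lists were chosen with earlier results of these data known. Alternatives were DESeq2 1.42.0, limma 3.58.1 (voom, adjusted p or local false discovery rate), RLE and upper-quartile factors, scaling to 8 adipocyte genes, other filters, thinning, fits of the compared groups alone and omission of each library in turn; corrections for GC content and length, and ratios of genes, were added after seeing the data. Some results for single genes outside the 9 members are not reported here.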

Additional observations from a re-analysis of the deposited data

Results flagged for a closer look

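The change from HFD to SW mice differed between adipocytes and SVC for 3 of the 9 genes, by an interaction term in edgeR over all 15 libraries. That term was called for 27.1% of all genes. For Cpt1a the log2 difference, adipocytes less SVC, was -1.18. Each of the 3 adipocyte SW libraries was lower than every HFD library, as for 26.1% of all genes. Each of the 3 SVC SW libraries was higher than every HFD library, as for 31.3% of all genes. This SVC change was not called (log2 fold change 0.15, SE 0.19, adjusted p = 0.566 by edgeR). With raw library totals, SVC HFD A (177 CPM) was above every SW library (131 to 167 CPM) and HFD B (109 CPM) below them. For Cpt1b the log2 difference was -3.24, and the SVC side rests on SW A and SW C. For Acadm it was 1.96, with SW lower than HFD in 3 of 3 SVC samples (as for 28.3% of all genes) and overlapping in adipocytes. Over the alternatives chosen at the outset the adjusted p reached at most 0.0104 for Cpt1a, 0.0993 for Cpt1b and 0.0117 for Acadm. Groups held at most 3 libraries, so none was tested for a single library standing apart.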

How the results depend on the processing

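Of 1589 values of single genes under other settings, 1467 kept their direction and side of the threshold or changed sign without being called in either fit (67 of them), 74 lost a call, 41 gained one and 7 reversed. All 7 reversals came from scaling to the 8 adipocyte genes, which moved the median of all genes to 1.25 (HFD against LFD) and 0.82 (HFD and SW together against LFD). They were Cpt2 0.74, Acadvl 0.80, Acadl 1.17, Acadm 1.01 and Hadhb 1.14 in the first, and Acadl 0.74 and Hadhb 0.76 in the second. With this scaling 9, 5, 0 and 6 members were called in the 4 adipocyte contrasts (HFD to LFD, SW to HFD, SW to LFD, and HFD and SW together to LFD). Over all genes 10121 were higher and 263 lower in HFD against LFD mice (3836 and 3612 with TMM) and 158 and 7364 in SW against HFD (2252 and 2294). The counts were 1682 and 95 in SW against LFD (1574 and 894) and 8045 and 244 in HFD and SW together against LFD (2996 and 2806). With the local false discovery rate 2 members were called in HFD against LFD and 0 in SW against LFD. For SW against LFD, DESeq2 called 2, and upper-quartile factors, no filter and only the groups compared called 0 each. For SVC SW against HFD, DESeq2 called 4, no filter 2, thinning 2 and the GC correction 0. The cause of these changes was not tested. Leaving out 1 library gave 2 to 4 members in HFD against LFD, 1 to 3 in SW against HFD, 0 to 1 in SW against LFD and 2 to 3 in HFD and SW together against LFD. It gave 0 to 3 in SVC, 6 to 7 and 5 to 8 between fractions in SW and HFD mice, and 2 to 6 in the interaction (6 without SVC HFD B).

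Counts over all genes moved by over 1.5 times in these settings: the local false discovery rate gave 2892 in SW against HFD, 1563 in SW against LFD, 1824 in SVC, 2984 between fractions in HFD mice and 2888 in the interaction, against 4546, 2468, 2849, 5078 and 4727; scaling to adipocyte genes gave 7522 in SW against HFD; in SVC limma-voom gave 1719 and DESeq2 5222 (2473 higher and 2749 lower, against 932 and 1917); the GC correction gave 0 in SVC, 3338 between fractions in HFD mice and 2246 in the interaction; and only the groups compared gave 2030 between fractions in HFD mice. Without HFD A and HFD C, SW against HFD gave 2299 and 1522; in HFD mice the fractions gave 3255 without adipocyte HFD B and 2528 without SVC HFD B; the interaction gave 2936 without SVC HFD A; and SVC gave from 0 (without SW A or SW C) to 6213 (without HFD B). With raw library totals in place of TMM, 28 of the 45 mean levels that have an SD moved by less than it. No paired analysis was possible because the numbers in the column names are in no label. The single LFD library and the 2 unlike HFD libraries limit SVC, and Cpt1b, with 7 to 410 counts in SVC, is limited by depth.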
